A study of Mus musculus with 4 samples.

Results

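The 9 genes described here encode transcription factors that build and maintain the skeletal muscle lineage: the paired-box factors Pax7 and Pax3, the basic helix-loop-helix factors Myf5, Myf6, Myod1 and Myog, and the MADS-box factors Mef2a, Mef2c and Mef2d. They were chosen by name from the 27998 genes of the count tables, and each had 1 row there. UMIs (unique molecular identifiers, each standing for 1 captured RNA molecule) of these genes were followed in single cells of 4 libraries, alone and together in the same cell. Satellite cells, the stem cells of muscle, had been sorted from the lower hindlimbs of 2 mouse models of Duchenne muscular dystrophy and their controls. The DMD strains, mdx (C57BL/10ScSn-Dmdmdx, 11 weeks) and D2-mdx (D2.B10-Dmdmdx, 14 weeks), carry a mutated dystrophin gene (Dmd). Their controls were B10 (C57/Bl10ScsSn, 15 weeks) for mdx and DBA (DBA/2, 13 weeks) for D2-mdx. The sort took cells with α7-integrin and VCAM1 and without Cd11b, Sca1, Cd45 and Cd31. Each strain was 1 library of cells pooled from 2 mice, so no strain had a replicate and no test was run. A fit of both DMD libraries against both controls was not made, and strain, age, mice and library cannot be told apart. Intervals below are 95% intervals of the counting error alone, exact Poisson for levels and Clopper-Pearson for shares of cells. Where 4 values stand in a row, the controls B10 and DBA come first, followed by mdx and D2-mdx.

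In adult muscle Pax7 marks satellite cells, and Pax3 is a close relative with a narrower range. Myf5 and Myod1 commit cells to the muscle fate, Myog takes precursors into differentiation, and Myf6 is best known from later stages and fibres. These 4 helix-loop-helix factors bind E-box sequences (CANNTG) as partners of E proteins, while Mef2 factors bind an AT-rich site and act with them on muscle genes. A resting satellite cell is known for Pax7 with little Myog, and activation is known for the appearance of Myod1.

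In the GENCODE M21 annotation of GRCm38, Myf5 (chr10:107482908-107486134) and Myf6 (chr10:107492853-107494737) are neighbours on the minus strand, 6718 bases apart. Pax7 lies at chr4:139737062-139833528 (minus), Pax3 at chr1:78101267-78197134 (minus), Myod1 at chr7:46376474-46379099 (plus) and Myog at chr1:134289989-134292548 (plus). Mef2a lies at chr7:67231163-67372858 (minus), Mef2c at chr13:83504034-83667080 (plus) and Mef2d at chr3:88142372-88172086 (plus). Mef2a overlaps the antisense gene Lysmd4 and Mef2d overlaps the antisense gene 1700113A16Rik. Reads of such partners cannot be told apart without strand, which is not given for the counting in the sources used here. Mef2a also overlaps Gm44667 and Gm44668 on its own strand, and neither is among the counted genes.

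The stretches of 250 bases before the RefSeq start sites (GRCm38.p6) of Myog and Myf5 are shown because cells with the one seldom held the other. They lie at chr1:134289754-134290003 (plus strand, Myog) and chr10:107486135-107486384 (minus strand, Myf5). Capitals mark each E-box CANNTG and each match to CTANNNNTA on either strand. The latter is a loose Mef2 pattern, with any base at N.
Myog: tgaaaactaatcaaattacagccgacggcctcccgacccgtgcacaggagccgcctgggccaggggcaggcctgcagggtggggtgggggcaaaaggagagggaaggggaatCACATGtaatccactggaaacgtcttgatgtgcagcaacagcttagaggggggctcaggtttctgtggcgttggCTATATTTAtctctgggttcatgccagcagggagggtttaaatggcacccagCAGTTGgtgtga
Myf5: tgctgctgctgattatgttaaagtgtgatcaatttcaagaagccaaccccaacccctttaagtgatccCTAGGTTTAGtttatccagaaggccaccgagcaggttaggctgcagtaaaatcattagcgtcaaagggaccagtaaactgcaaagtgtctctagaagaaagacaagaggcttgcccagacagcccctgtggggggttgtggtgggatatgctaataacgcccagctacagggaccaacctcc
The Myog stretch held 2 E-boxes and 1 match to the loose Mef2 pattern. Myf5 had no E-box, and its capitals are 2 overlapping matches to the Mef2 core, 1 on each strand. Of 32851 such RefSeq stretches, 66.2% held an E-box, 31.8% held at least as many as Myog, and 19.0% held the loose Mef2 pattern. The stretches of Pax7, Mef2a and Mef2d held neither motif, and the 3 start sites of Mef2c held 2, 0 and 1 E-boxes. The last of these Mef2c stretches also held 1 match to the loose Mef2 pattern. Pax3, Myf6 and Myod1 had no stretch among the sequences used. A match describes letters, not a bound site.

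The B10 library stood apart in its deposited barcodes, 4739 of 9931 of which had fewer than 1000 genes, against 11 to 21 in the other libraries. Limits on genes and mitochondrial UMIs and a doublet caller left 4581 and 3279 cells of the controls B10 and DBA and 6313 and 5756 cells of mdx and D2-mdx. Of these, 4418 and 2699 control cells and 4821 and 4188 DMD cells were myogenic by the markers of their cluster, with medians of 8424, 10294, 6848 and 6474.5 UMIs and totals of 30112218 to 40389757 UMIs. Levels are in CPM, the UMIs of a gene per 1000000 UMIs of the cells named. These are a library's myogenic cells unless a cluster or other cells are named. Dmd itself was at 324 and 287 CPM in the controls and at 120 and 94.4 CPM in mdx and D2-mdx. Each mutant library was thus the lower of its pair. Satellite cell markers (12 genes) summed to 7353 and 7002 CPM in the controls and to 4440 and 4291 CPM in the DMD libraries. Barcodes shared by a pair of libraries numbered 5 to 16, and 61 in all. Shares of cells with a UMI depend on depth, so 3000 UMIs were drawn from every cell (thinning), and 39 B10 cells with fewer were left out. Shares are from thinned cells unless said otherwise.

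The level of a gene describes the whole library, in which fewer expressing cells and less RNA per cell cannot be told apart. These are counts of RNA ends, and levels are compared between libraries, not between genes. A gene was compared when either library of a pair had at least 10 CPM of it, and a difference past 2-fold was set as the size of interest. Of the 9 factors, 7 reached that minimum in mdx or B10, and 3 (Pax7 and Pax3 lower, Myog higher) were past 2-fold, where 9.87% of 8478 genes were (4.71% higher and 5.17% lower). In D2-mdx over DBA, 2 of 7 (Pax3 lower, Myog higher) were past 2-fold, against 11.7% of 8502 genes (5.85% higher and 5.88% lower). None was past 2-fold in D2-mdx over mdx (3.56% of 8180 genes) or in DBA over B10 (3.55% of 8343 genes).

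**Figure D1:**
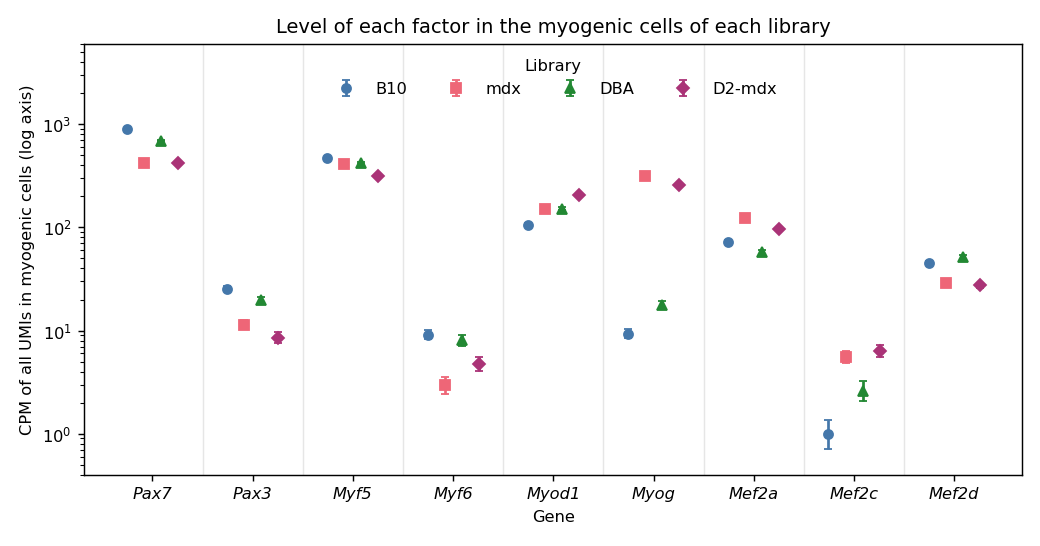
Level of each factor in the myogenic cells of the 4 libraries, in CPM on a log axis, with exact Poisson 95% intervals of the counts as bars. Myog stands at 316 and 261 CPM in mdx and D2-mdx and at 9.33 and 17.7 CPM in B10 and DBA, while Pax7 and Pax3 are lower in both DMD libraries than in both controls.

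Pax7, the factor that defines satellite cells, was at 907 and 695 CPM in the controls B10 and DBA and at 424 and 425 CPM in mdx and D2-mdx. Both DMD libraries lay below both controls and at nearly the same level. On the log2 scale mdx differed from B10 by -1.10 (-1.12 to -1.07) and D2-mdx from DBA by -0.71 (-0.74 to -0.68), while D2-mdx and mdx differed by 0.01 (-0.03 to 0.04). A Pax7 UMI was found in 90.1% and 82.8% of control cells and in 67.9% and 68.9% of DMD cells, and without thinning in 99.2%, 98.7%, 87.0% and 86.5%. In endothelial and white blood cells, which should lack Pax7, the thinned share over all libraries was 11.8% of 654 cells (median 8688 UMIs before thinning), from 8.31% of 361 cells in mdx to 45.5% of 33 cells in DBA. Shares in the myogenic cells were above that level in every library.

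Pax3, the close relative of Pax7, was sparse, with 1017 and 593 UMIs in the controls and 462 and 299 in mdx and D2-mdx. Its levels of 25.5 and 19.7 CPM in the controls and 11.4 and 8.56 CPM in the DMD libraries again put both DMD libraries below both controls. The log2 ratios were -1.16 (-1.32 to -0.996) for mdx and -1.20 (-1.41 to -0.9997) for D2-mdx over the matching control, with both intervals reaching just inside 2-fold. Pax3 was seen in 6.23% and 5.30% of control cells and 3.65% and 2.72% of DMD cells, against 0.153% of endothelial and white blood cells. That last share is pooled over the libraries, with most of its cells from mdx and D2-mdx and few from the controls.

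Myf5, the earliest of the helix-loop-helix factors in development, had the smallest differences of the 7 compared factors between a DMD library and its control. It was at 471 and 423 CPM in B10 and DBA and at 411 and 318 CPM in mdx and D2-mdx. The log2 ratios were -0.19 (-0.22 to -0.16) for mdx and -0.41 (-0.45 to -0.37) for D2-mdx. Myf6, its neighbour on the chromosome, stayed under the minimum of 10 CPM, at 9.13 and 8.07 CPM in the controls and 2.95 and 4.78 CPM in the DMD libraries. Its log2 ratios of -1.63 (-1.94 to -1.33) and -0.76 (-1.05 to -0.47) were therefore not counted above, and Myf6 was found in 0.996% to 2.85% of cells.

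Myod1, the factor known for turning other cells into muscle, was at 106 CPM in B10 against 150 CPM in mdx, and at 152 CPM in DBA against 207 CPM in D2-mdx. Each DMD library was above its own control, but mdx and DBA were at the same level. The log2 ratio was 0.50 (0.44 to 0.56) for mdx and 0.44 (0.39 to 0.50) for D2-mdx over the matching control. Between the backgrounds it was 0.47 (0.42 to 0.52) for D2-mdx over mdx and 0.52 (0.46 to 0.58) for DBA over B10, as large as between disease and control. The share of cells with Myod1 did not follow these levels, with 21.0% and 27.0% in the controls and 20.5% and 24.7% in the DMD libraries. It was 2.45% in endothelial and white blood cells pooled over the libraries, with few of these cells from the controls. More of the DMD cells held many copies. After thinning, 3 or more UMIs were found in 216 of 4821 mdx cells against 75 of 4379 in B10. In D2-mdx they were found in 272 of 4188 cells, against 88 of 2699 in DBA.

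Myog, which carries precursors into differentiation, differed most between the libraries of a pair. It was at 9.33 CPM in B10 and 17.7 CPM in DBA, and at 316 CPM in mdx and 261 CPM in D2-mdx. On the log2 scale mdx exceeded B10 by 5.08 (4.93 to 5.23) and D2-mdx exceeded DBA by 3.88 (3.76 to 4.01). Few cells carried these UMIs: without thinning, 12748 UMIs lay in 397 of the mdx cells and 9107 in 532 of the D2-mdx cells, against 372 UMIs in 30 B10 cells and 532 UMIs in 41 DBA cells. After thinning, Myog was found in 0.320% and 0.741% of control cells and in 5.48% and 8.21% of DMD cells. Endothelial and white blood cells had Myog in 1.39% of 361 mdx cells (0.451% to 3.20%), in 2.43% of 247 D2-mdx cells (0.897% to 5.21%), and in none of 13 B10 and 33 DBA cells. The shares in mdx and D2-mdx myogenic cells were above that background.

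The Mef2 factors, which act with Myod1 and Myog on muscle genes, did not move as 1 family. Mef2a was at 72.6 and 57.4 CPM in B10 and DBA and at 124 and 97.3 CPM in mdx and D2-mdx, with log2 ratios of 0.78 (0.71 to 0.84) and 0.76 (0.68 to 0.85) over the matching control. Mef2d was at 45.0 and 51.4 CPM in the controls and 28.6 and 27.4 CPM in the DMD libraries, with log2 ratios of -0.65 (-0.76 to -0.54) and -0.91 (-1.03 to -0.79). Mef2a was thus higher and Mef2d lower in each DMD library than in both controls, short of 2-fold in each case.

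Mef2c had only 40 and 79 UMIs (1.00 and 2.62 CPM) in the myogenic cells of B10 and DBA, and 222 and 224 UMIs (5.50 and 6.41 CPM) in those of mdx and D2-mdx. Other cells in the same libraries held far more, with 307 CPM in endothelial and white blood cells, 211 CPM in pericytes and 967 CPM in vascular smooth muscle cells. Near-empty barcodes of B10, those with fewer than 500 genes, had 13.5 CPM of Mef2c, above the B10 myogenic cells. White blood cell markers summed to 1.73 and 9.37 CPM in control myogenic cells and to 20.9 and 100 CPM in DMD myogenic cells. Endothelial markers summed to 2.51, 3.06, 9.06 and 9.39 CPM, and both lists had the same order of libraries as Mef2c. Pericyte markers, at 353, 293, 236 and 224 CPM, and vascular smooth muscle markers, at 192, 210, 118 and 228 CPM, did not have that order. The log2 ratios of Mef2c were 2.45 (1.96 to 2.98) for mdx and 1.29 (0.91 to 1.68) for D2-mdx, under the minimum level. The part of RNA from other cells in them was not tested.

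Clustering of the myogenic cells, made without the 9 factors, gave 3 clusters with satellite cell markers, pooled below as MuSC-like, and 4 others. MuSC-like cells were 90.7% and 89.3% of the control cells and 64.2% and 66.2% of the DMD cells. Cluster 2 (led by Actc1, Cdkn1c, Myog and Postn, with markers of several states) held 127 and 130 control cells and 1274 and 880 DMD cells. Cluster 3 (led by Esm1, Fosl1, Cst6 and Hmga2) held 73 and 48 control cells and 332 and 400 DMD cells. These clusters came mostly from the DMD libraries and may in part be those libraries. Cluster 5 (led by Dlk1, Hhip and Car3) held 335 cells in all, and 243 cells with interferon-induced genes such as Ifit1 and Ifit3 were immunomyoblast-like.

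**Figure D2:**
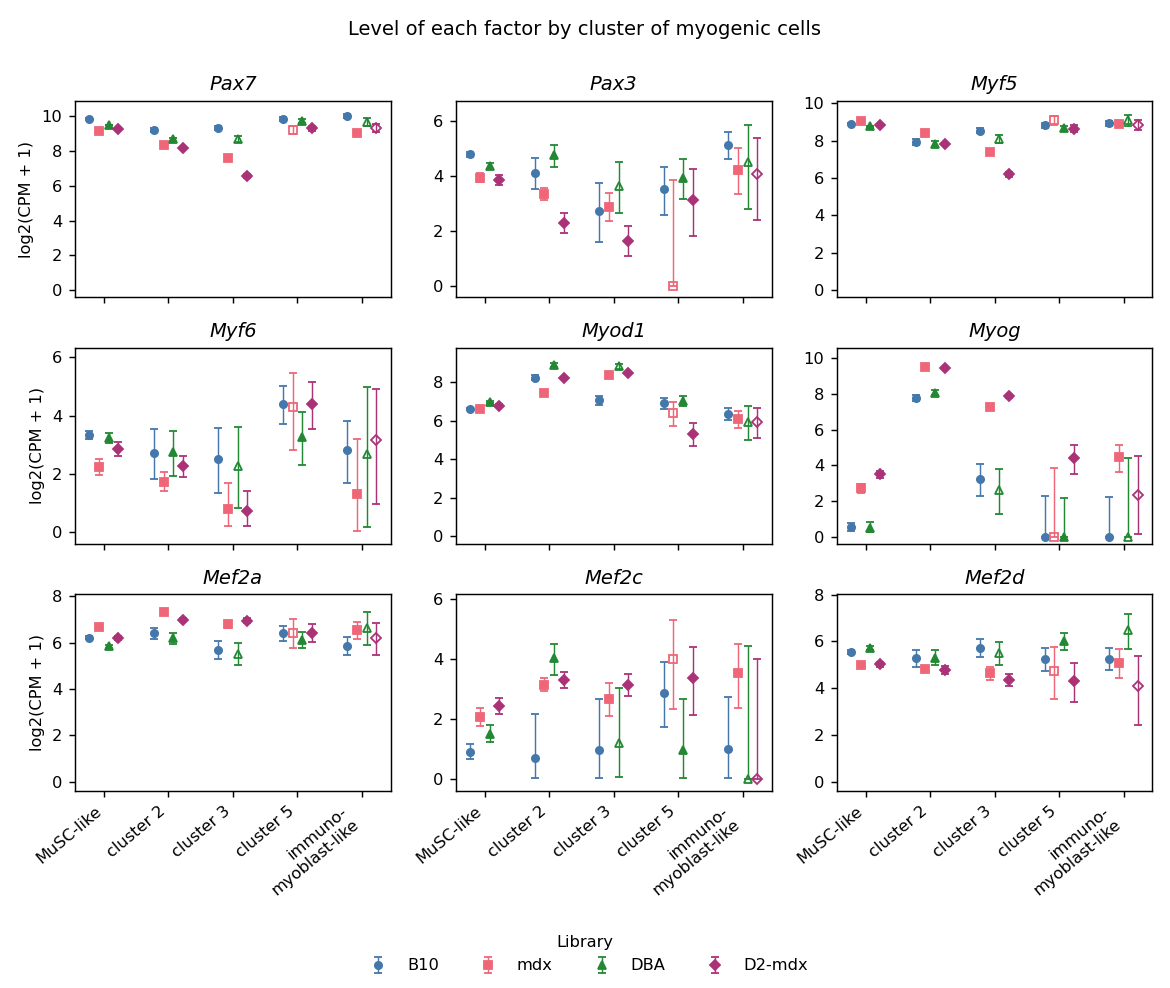
Level of each factor, as log2(CPM + 1), in each cluster and library, with exact Poisson 95% intervals and open symbols for fewer than 50 cells. Myog is highest in cluster 2 in every library, at 219 to 722 CPM, and Myod1 is higher in cluster 2 than in MuSC-like cells of the same library.

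With libraries of at least 50 cells in a cluster given the same weight, Myog and Mef2a had their highest mean in cluster 2 and Myf6 in cluster 5. The mean of Myf6 leaves out mdx, with 40 cells in cluster 5, and rests on 19, 9 and 13 UMIs in B10, DBA and D2-mdx. In DBA, Myf6 was at 8.61 CPM in cluster 5 and 8.36 CPM in MuSC-like cells. For Pax7, Pax3, Myf5, Myod1, Mef2c and Mef2d no highest state is read, since the means rest on different libraries, with B10 and mdx alone for immunomyoblast-like cells, and the order changed between libraries. For Pax7, MuSC-like and cluster 5 cells were at 926 and 916 CPM in B10, 718 and 840 CPM in DBA and 618 and 632 CPM in D2-mdx. Cluster 3 was higher than cluster 2 in Myod1 in mdx and D2-mdx. Mef2c was higher in cluster 2 than in cluster 5 in DBA (15.1 and 0.957 CPM) but lower in B10 (0.630 and 6.32 CPM). Pax7 was lower in cluster 2 than in MuSC-like cells of every library, at 588 and 404 CPM in B10 and DBA and 319 and 288 CPM in mdx and D2-mdx. In cluster 3 Pax7 was at 629 CPM in B10 and 195 CPM in mdx, and Myf5 at 373 and 168 CPM. In D2-mdx the same cluster had 93.5 CPM of Pax7 and 73.0 CPM of Myf5, the lowest of these clusters, and in the 48 DBA cells 415 and 273 CPM. Other genes also differed within cluster 3. Immediate-early genes summed to 25722 and 17906 CPM in B10 and DBA and to 8251 and 5139 CPM in mdx and D2-mdx, while cycling markers summed to 52.1, 120, 332 and 678 CPM and markers of mature myonuclei to 31.3, 20.5, 143 and 468 CPM. Their part in the differences of Pax7 and Myf5 was not tested.

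In MuSC-like cells Myod1 was at 96.9 and 122 CPM in B10 and DBA and at 97.2 and 109 CPM in mdx and D2-mdx. The log2 ratios there were 0.00 (-0.08 to 0.09) and -0.17 (-0.25 to -0.08), so that the higher Myod1 of the DMD libraries was not seen in these cells. In cluster 2 Myod1 was at 296 and 467 CPM in the controls and 171 and 297 CPM in mdx and D2-mdx, lower in each DMD library than in its control. In cluster 3 it was at 132 CPM in B10 and 332 CPM in mdx, and at 446 CPM in DBA and 348 CPM in D2-mdx. Both clusters had more Myod1 than MuSC-like cells in all 4 libraries, and both held a larger share of the cells in the DMD libraries.

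In cluster 2 Myog was at 219 and 270 CPM in B10 and DBA and at 722 and 701 CPM in mdx and D2-mdx. In cluster 3 it was at 156 and 233 CPM in mdx and D2-mdx, and only 9 UMIs in B10 (8.52 CPM) and 4 in DBA (5.12 CPM) were counted there. In MuSC-like cells Myog was at 0.453 and 0.420 CPM in the controls and at 5.61 and 10.3 CPM in the DMD libraries. The share of MuSC-like cells with Myog, 1.52% in mdx and 2.92% in D2-mdx, was within the wide intervals of the endothelial and white blood cells given above, which rest on 5 and 6 cells with Myog. These shares were therefore not read as expression, and Myog above the level of other cell types was not detectable in MuSC-like cells at this depth.

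Among MuSC-like cells, with 6.32% of 8352 genes past 2-fold in mdx over B10 and 7.37% of 8340 in D2-mdx over DBA, no factor with at least 10 CPM was past 2-fold in the first pair and Myog alone in the second (4.62, 3.75 to 5.65, on the log2 scale). Under that minimum in mdx over B10, Myog had a log2 ratio of 3.63 (2.86 to 4.49), Mef2c of 1.86 (1.21 to 2.53) and Myf6 of -1.29 (-1.68 to -0.92). Pax7 was at 926 and 718 CPM in the controls and 558 and 618 CPM in mdx and D2-mdx, with log2 ratios of -0.73 (-0.76 to -0.70) and -0.22 (-0.25 to -0.18). Myf5, at 484 and 441 CPM in the controls and 525 and 460 CPM in the DMD libraries, was slightly higher in each DMD library (0.12 and 0.06 on the log2 scale). Mef2a kept its direction (0.46 and 0.36), as did Mef2d (-0.57 and -0.73) and Pax3 (-0.89 and -0.53). Erythrocyte genes, which belong to another cell type, summed in these cells to 24.3 and 341 CPM in the controls and to 959 and 1406 CPM in the DMD libraries. Immediate-early genes summed to 40661, 33884, 48475 and 50357 CPM, also higher in each DMD library, and the part of either in the ratios was not tested.

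A finer clustering of all myogenic cells separated the markers that led cluster 2. Its clusters are not parts of cluster 2 alone, since those given here together hold more D2-mdx cells than the 880 of cluster 2. A cluster with differentiation markers (Actc1, Tmem8c) held 13 B10 and 29 DBA cells and 183 mdx and 158 D2-mdx cells. Myog was also among its leading genes. There Myog reached 4330 CPM in mdx and 3525 CPM in D2-mdx, Myod1 612 and 810 CPM and Mef2a 270 and 243 CPM. In the same cells Pax7 was at 38.1 and 64.7 CPM and Myf5 at 17.8 and 20.8 CPM. A Pax7 UMI was found in 9.29% of these mdx cells and 14.6% of these D2-mdx cells. The mdx share was near that of the mdx endothelial and white blood cells given above, so it was not read as expression. Myod1 with Myog was found in 124 of these mdx cells (67.8%, 60.5% to 74.5%) and 127 of these D2-mdx cells (80.4%, 73.3% to 86.3%). A larger cluster, with Postn and Mgp, held 948 mdx and 583 D2-mdx cells with Pax7 at 395 and 372 CPM, Myod1 at 48.8 and 127 CPM and Myog at 15.6 and 32.5 CPM. A further cluster, with cycling markers, held 119 mdx and 269 D2-mdx cells, with Pax7 at 81.6 and 54.3 CPM, Myod1 at 210 and 244 CPM and Myog at 328 and 301 CPM. Levels of Pax7 thus differed several-fold between these finer clusters, and the mean of cluster 2 may mix such levels.

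Cells with a UMI of both genes of a pair were then counted and set against the number expected if detection of each were independent within the library. Of 36 pairs, 19 were expected in at least 10 cells of every library. Of these, 4 were above expectation in all libraries (Pax7 with Pax3, in mdx only just, Pax7 with Mef2d, Myf5 with Myf6, Myod1 with Mef2a), 5 were below it (Pax7 with Myog, Myf5 with Myod1, Myf5 with Myog, Pax3 with Myod1, Pax3 with Mef2a) and 10 were mixed. Of the pairs above, the expected number was inside the counting interval of the observed one in each library, except Myod1 with Mef2a in D2-mdx, and the same held for the pairs of Pax3 that were below. Myf5 with Myod1 was below it beyond the interval in all 4 libraries, Pax7 with Myog in all but DBA and Myf5 with Myog in all but B10. When the expectation was set within each cluster, 1 was above and 4 were below in all libraries.

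**Figure D3:**
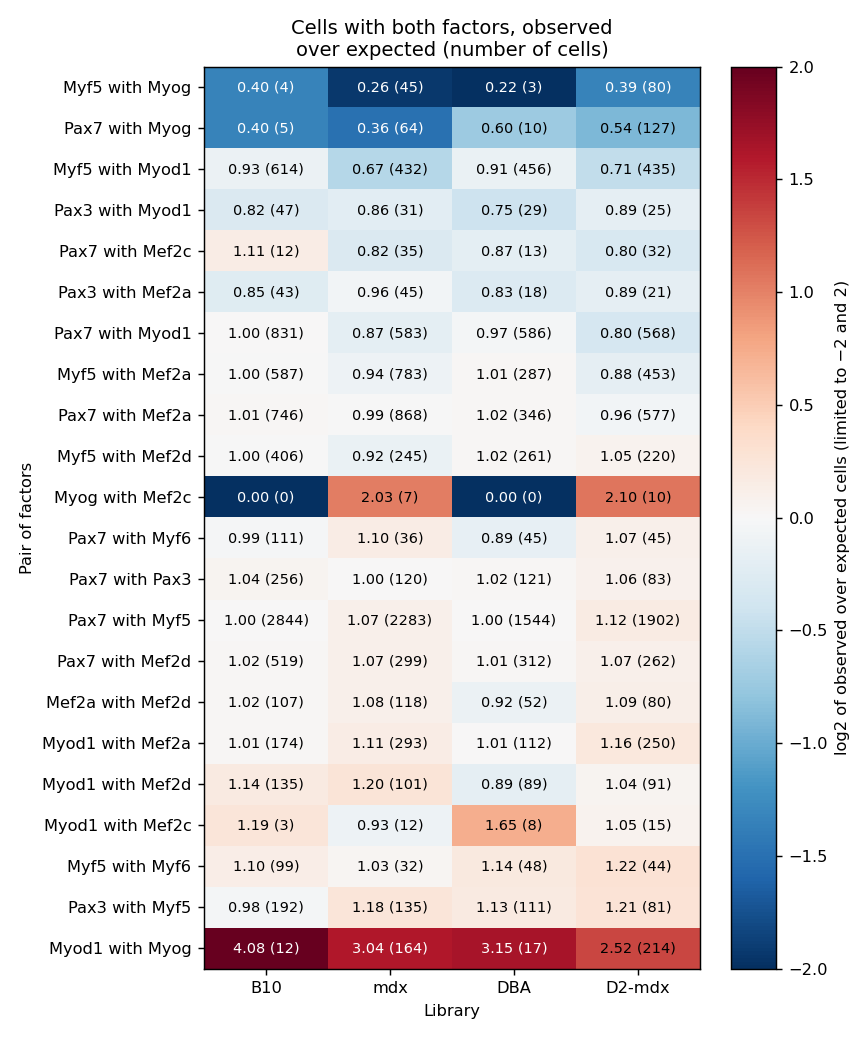
Observed over expected number of cells with both factors, for the pairs named on the left in each library, cells at 3000 UMIs, with the observed number of cells in brackets and the colour giving the log2 of the ratio, limited to -2 and 2. Myod1 with Myog, expected in as few as 2.94 cells of a library, is above 1 in every library. Pax7 with Myog and Myf5 with Myog are below 1 in every library.

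Pax7 with Myod1, the pair known from activated satellite cells, was the most common pairing with Myod1 in these cells. It was found in 831 B10 cells (19.0%, 17.8% to 20.2%) and 586 DBA cells (21.7%, 20.2% to 23.3%). In the DMD libraries it was found in 583 mdx cells (12.1%, 11.2% to 13.0%) and 568 D2-mdx cells (13.6%, 12.5% to 14.6%). Joint detection was less frequent in each DMD library by more than the counting error, by 6.88 percentage points in mdx and 8.15 in D2-mdx. It stood at 1.00 and 0.97 times the expectation in B10 and DBA and at 0.87 and 0.80 times in mdx and D2-mdx. Of cells with Myod1, 90.2% and 80.5% in the controls and 59.1% and 54.9% in the DMD libraries also had Pax7, close to the share over all cells in the controls and below it in the DMD libraries. Without thinning, 38.2%, 50.8%, 24.8% and 28.6% of cells had both.

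Within MuSC-like cells, Pax7 with Myod1 was at 1.01 and 1.00 times the expectation in B10 and DBA and at 1.05 and 1.01 times in mdx and D2-mdx. In cluster 2 the pair was at 1.00 times in B10 (43 of 126 cells) and 0.89 in DBA (48 of 130), and at 0.54 in mdx (87 of 1274) and 0.65 in D2-mdx (112 of 880). Cluster 2 held markers of several states, and the part of that mix in its ratios was not tested. As a share of MuSC-like cells the pair was nevertheless less frequent in the DMD libraries, with 730 of 3970 cells (18.4%) in B10 against 434 of 3096 (14.0%) in mdx, and 505 of 2410 (21.0%) in DBA against 400 of 2771 (14.4%) in D2-mdx. The differences were -4.37 (-6.10 to -2.62) and -6.52 (-8.64 to -4.41) percentage points. In MuSC-like cells the share of cells with both was thus lower, while the ratio to the number expected from the single genes was not.

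Myod1 with Myog, the pair of differentiating myoblasts, was found in 12 B10 cells (0.274%, 0.142% to 0.478%) and 17 DBA cells (0.630%, 0.367% to 1.01%). It was found in 164 mdx cells (3.40%, 2.91% to 3.95%) and 214 D2-mdx cells (5.11%, 4.46% to 5.82%). The count was 4.08, 3.15, 3.04 and 2.52 times the expectation. The pair is not among the 19 counted above, since as few as 2.94 cells were expected in a library. Of cells with Myog, 85.7% of 14 in B10 and 85.0% of 20 in DBA had Myod1, as did 62.1% of 264 in mdx and 62.2% of 344 in D2-mdx. These shares include MuSC-like cells, in which Myog was not read as expression. Among them, 29 mdx and 48 D2-mdx cells had Myog with Pax7 and without Myod1. Of cells with Myod1, 1.30% and 2.34% in the controls had Myog, against 16.6% and 20.7% in the DMD libraries. The cells with both were deep before thinning, with medians of 20490, 16085, 13624 and 11108 UMIs against 8461, 10270, 6733 and 6345 in the rest. Their median doublet scores were lower than those of the rest in every library, 0.0369 against 0.0528 in mdx and 0.0388 against 0.0478 in D2-mdx.

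Pax7 with Myog was rare and below expectation. It was found in 5 B10 and 10 DBA cells (0.114% and 0.371%) and in 64 mdx and 127 D2-mdx cells (1.33% and 3.03%), at 0.40, 0.60, 0.36 and 0.54 times the expectation. Of cells with Myog, 24.2% (19.2% to 29.9%) in mdx and 36.9% (31.8% to 42.3%) in D2-mdx had Pax7. Most of this overlap rested on single UMIs: with at least 2 UMIs asked of each gene, mdx exceeded B10 in the share of cells with both by 0.0415 percentage points and D2-mdx exceeded DBA by 0.0214, in place of 1.21 and 2.66. Cells with 1 Myog UMI had a mean of 1.45 Pax7 UMIs in both mdx and D2-mdx, close to the 1.49 and 1.63 of cells without Myog, and those with 3 or more had 0.0529 and 0.103. Cells with Pax7, Myod1 and Myog at once numbered 4 and 8 in the controls and 20 and 51 in the DMD libraries. Of the cells with Pax7 and Myog but without Myod1, 29 of 44 in mdx and 48 of 76 in D2-mdx were MuSC-like. Myog was not read as expression in MuSC-like cells.

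**Figure D4:**
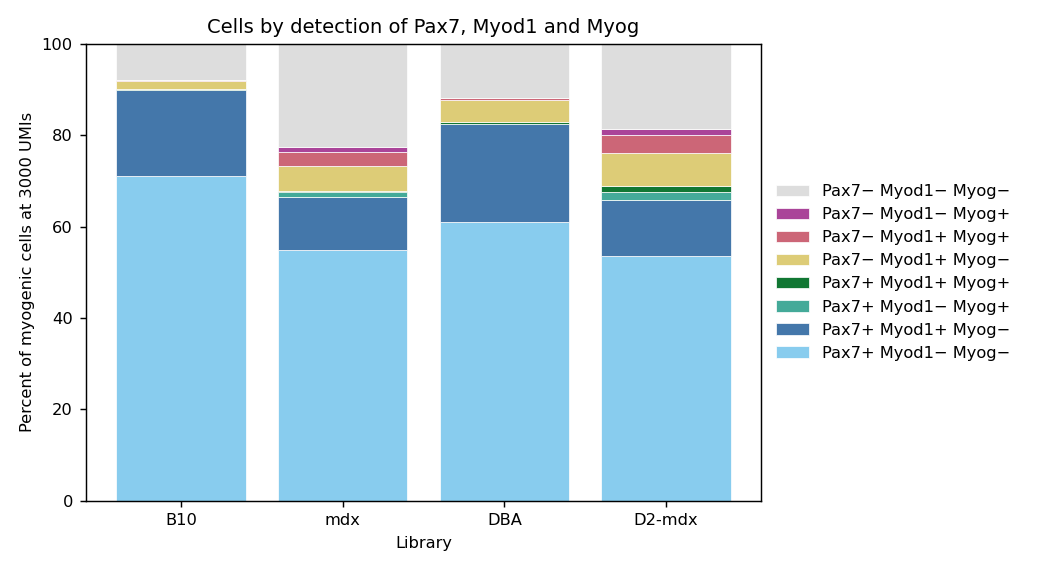
Percent of myogenic cells of each library, thinned to 3000 UMIs, with each combination of Pax7, Myod1 and Myog detected or not. Cells with Pax7 alone of these 3 are 71.1% and 61.1% in B10 and DBA and 54.9% and 53.5% in mdx and D2-mdx, and cells with Myod1 and Myog without Pax7 are 0.183%, 0.333%, 2.99% and 3.89% in the same order.

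Of the 19 pairs, Myf5 with Myog was farthest below expectation. It was found in 4 and 3 control cells and in 45 and 80 DMD cells, at 0.40, 0.22, 0.26 and 0.39 times the expectation, the lowest median over libraries. Myf5 and Myod1, which share the role of committing cells to muscle, were found together in 614, 456, 432 and 435 cells, at 0.93, 0.91, 0.67 and 0.71 times. Of cells with Myf5, 13.8% in mdx had Myod1, against 32.9% of cells without it, and in D2-mdx 17.6% against 34.9%. The corresponding shares were 19.5% against 25.1% in B10 and 24.5% against 32.4% in DBA, so a cell with Myf5 had Myod1 less often in all libraries. In MuSC-like cells the ratio stayed under 1, at 0.95, 0.95, 0.83 and 0.91.

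Pairs of early factors were near expectation or slightly above it. Pax7 with Myf5 was found in 2844 and 1544 control cells and 2283 and 1902 DMD cells, at 1.00, 1.00, 1.07 and 1.12 times, and Pax7 with Pax3 at 1.04, 1.02, 1.00 and 1.06 times. Pax3 with Myf5 was at 0.98, 1.13, 1.18 and 1.21 times. The neighbouring genes Myf5 and Myf6 met in 99, 48, 32 and 44 cells, at 1.10, 1.14, 1.03 and 1.22 times. Pairs with Mef2c had too few cells to read, since Myod1 with Mef2c was seen in 3, 8, 12 and 15 cells and Myog with Mef2c in 0, 0, 7 and 10. Myog with Mef2a was at 1.92 times in B10 (5 cells) and 3.28 in DBA (10), and at 1.69 in mdx (119) and 1.50 in D2-mdx (107). A cell held a UMI of 2.24, 2.17, 2.00 and 1.96 of the 9 factors on average, and 66, 58, 243 and 246 cells held none.

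Cells were also ordered by the number of Myod1 UMIs they held. Mean Myog went up along this order in all 4 libraries. From cells without Myod1 to cells with 3 or more, it went from 0.000578 to 0.467 UMIs per cell in B10 and 0.00406 to 0.545 in DBA, and from 0.193 to 2.81 in mdx and 0.112 to 2.94 in D2-mdx. Myf5 went down in all 4, from 1.50 to 1.04 and 1.37 to 0.909 in the controls and from 1.52 to 0.676 and 1.28 to 0.423 in the DMD libraries. Pax7 went from 1.49 to 0.912 in mdx and from 1.69 to 0.879 in D2-mdx. In B10 it went from 2.91 to 2.63 and in DBA from 2.14 to 1.91, within the counting intervals. Mef2a went from 0.319 to 0.491 in mdx and from 0.224 to 0.386 in D2-mdx, with overlapping intervals in B10 and DBA.

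**Figure D5:**
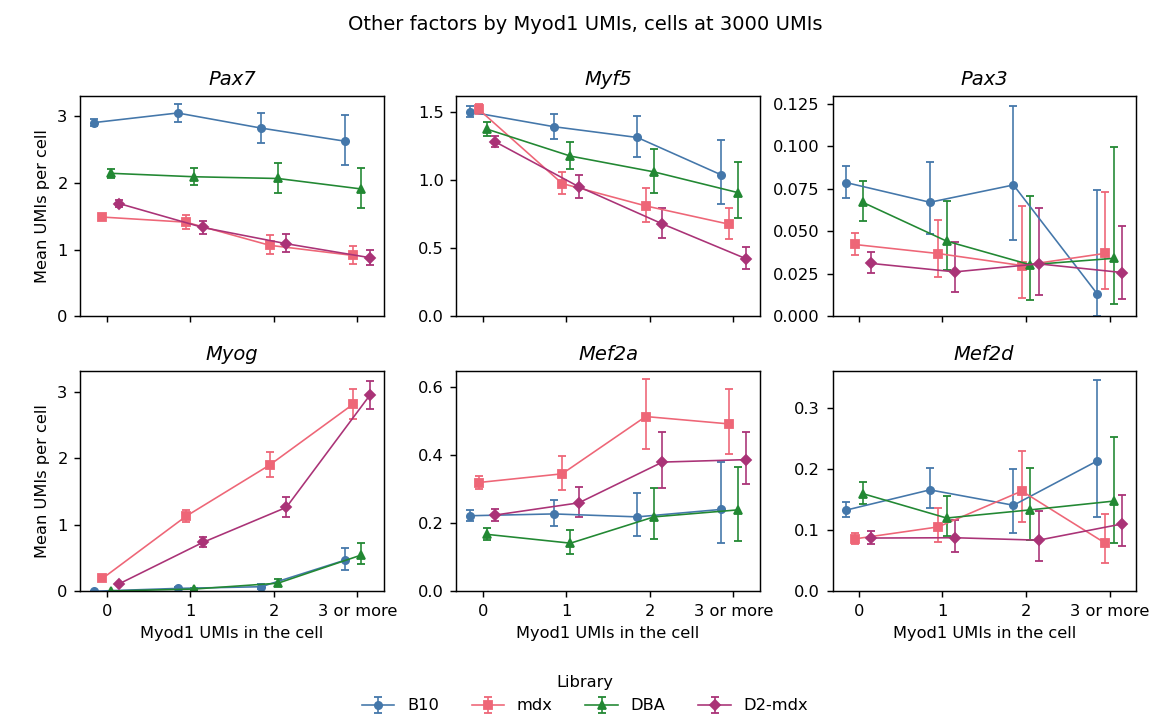
Mean UMIs per cell of 6 other factors in cells with 0, 1, 2 and 3 or more Myod1 UMIs, myogenic cells at 3000 UMIs, with exact Poisson 95% intervals. Myog is highest and Myf5 lowest in cells with 3 or more Myod1 UMIs in every library.

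In MuSC-like cells on their own this was different. Cells with 3 or more Myod1 UMIs held 0 Myog UMIs in 52 B10 and 49 DBA cells, 1 in 76 mdx cells and 1 in 93 D2-mdx cells. Pax7 in MuSC-like cells was at 2.94 UMIs per cell without Myod1 and 3.23 (2.76 to 3.76) with 3 or more in B10, and at 2.15 and 2.45 (2.03 to 2.93) in DBA. It was at 1.67 and 1.76 (1.48 to 2.09) in mdx and at 1.90 and 1.90 (1.63 to 2.21) in D2-mdx. Over all myogenic cells, those high in Myod1 thus had more Myog in every library and less Pax7 in mdx and D2-mdx only. Within MuSC-like cells they differed from the rest in neither by more than the counting error. Values for cells outside the MuSC-like clusters alone are not given here.

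E proteins, the partners of the helix-loop-helix factors, were present in every library. None of 3 was past 2-fold in either pair, where 9.87% and 11.7% of all genes were, and 3 genes are too few to set against these shares. Their median log2 ratios were 0.11 and 0.12, against -0.03 and -0.07 over all genes tested. Tcf12 was at 115, 108, 141 and 118 CPM and Tcf4 at 760, 684, 529 and 451 CPM. Of the Id proteins and other inhibitors of these factors, 9 of 14 were tested, 1 was past 2-fold higher in mdx and 3 in D2-mdx, where 4.71% and 5.85% of all genes were, none lower, with medians of 0.28 and 0.31. Id3, which ties up E proteins, was at 968 and 493 CPM in the controls and 2073 and 1436 CPM in the DMD libraries, with log2 ratios of 1.10 (1.08 to 1.12) and 1.54 (1.51 to 1.57). Id2 had ratios of 0.85 and 1.21. Both were higher in each DMD library, also in MuSC-like cells, where Id3 had ratios of 1.56 and 2.11. At the other end Bhlhe41 had ratios of -0.77 and -0.09, and Mdfic, an inhibitor of the same family as the MyoD inhibitor, -0.53 and -0.66.

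Among factors that act upstream of the myogenic factors, Six4 was higher in each DMD library, at 13.3 and 10.6 CPM in the controls and 28.8 and 22.5 CPM in the DMD libraries. Eya4, a coactivator of such factors, was lower, at 20.9 and 25.7 CPM against 9.46 and 7.64 CPM. Six2 had log2 ratios of -0.58 and -1.60. Of 17 other transcription factors of muscle precursors, 9 were tested in mdx over B10 and 8 in D2-mdx over DBA. None was past 2-fold (medians -0.32 and -0.20), where 9.87% and 11.7% of all genes were. For so short a list that is close to the background. Among those tested in both pairs, the lowest and highest in mdx over B10 were Sox8 (-0.76, and -0.49 in D2-mdx over DBA) and Pitx3 (0.08 and 0.44). Lbx1 had ratios of -0.49 and -0.67 and Tead1 of -0.10 and -0.26.

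Of 14 regulators and partners of Mef2, 11 were tested, with 1 higher and 1 lower past 2-fold in each pair (medians -0.26 and -0.23). Over all genes 4.71% were higher and 5.17% lower in mdx and 5.85% and 5.88% in D2-mdx, so 1 of 11 is close to the background. The class II histone deacetylases, which hold Mef2 inactive, went in different directions. Hdac5 was at 7.85 and 5.94 CPM in the controls and 23.4 and 16.8 CPM in the DMD libraries, with log2 ratios of 1.57 (1.39 to 1.76) and 1.50 (1.26 to 1.75). Hdac4 was at 79.4 and 85.0 CPM in the controls and 37.7 and 30.4 CPM in the DMD libraries, with log2 ratios of -1.08 (-1.16 to -0.99) and -1.48 (-1.59 to -1.38). Both kept their direction in MuSC-like cells (1.41 and 1.28 for Hdac5, -0.77 and -1.09 for Hdac4). Hdac7 had ratios of 0.20 and 0.80, and the coactivator Ep300 of -0.81 and -0.78.

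Of 18 genes known to be induced by Myod1 or Myog, 13 were tested, with 7 past 2-fold higher in mdx and 8 in D2-mdx, against 4.71% and 5.85% of all genes, and none lower (medians 1.00 and 2.14). Actc1, the cardiac actin of young muscle, was at 0.702 and 0.365 CPM in B10 and DBA and at 121 and 53.6 CPM in mdx and D2-mdx. Gm7325 (myomixer, a fusion peptide) was at 0.0501 and 0 CPM in the controls and at 23.1 and 35.6 CPM in the DMD libraries. Not all members were higher: Rapsn, which clusters acetylcholine receptors, had ratios of 0.01 and -0.05, and the slow troponin gene Tnnt1 of -0.29 and -0.23.

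Over 24 sums of 1 cluster in 1 library, each of at least 50 cells, the genes whose log2(CPM + 1) went most closely with Pax7 were Foxo1 (Pearson r of 0.965), Tgfbr3 (0.963), Use1 (0.962), Dtx4 (0.960) and Zbtb4 (0.956). For Myod1 they were Naa50 (0.881), Psat1 (0.866), Vcp (0.848), Smc2 (0.844) and Hdac2 (0.844). For Myog they were Marcksl1 (0.952), Gapdh (0.941), Sh3glb1 (0.940), Cenpf (0.931) and Stmn1 (0.923). For Pax3 the closest were Ptprg (0.862) and Fgfr1 (0.860), and for Mef2c Bag1 (0.801) and Atp6v1g1 (0.799). The sums share 4 libraries and their depth, are not independent, and rank genes as a description only.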

How the data were processed

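Single cells of 4 libraries were measured with the 10x 3′ v3.1 chemistry, 1 library per strain, each from 2 mice. The values are whole-number UMI counts per gene and barcode as deposited; the authors aligned reads to mm10 and counted with Cell Ranger 3.0.1, per the submitters' processing notes, without further normalization. Cells of 1000 to 5000 genes and at most 8% mitochondrial UMIs were kept, and doublets were scored with Scrublet (scanpy 1.11.5, 0.8% expected per 1000 cells) and removed up to the expected number, 2.70% to 5.34% of cells. Seurat 5.3.0 (R 4.3.3) integrated the libraries on 2000 features and 30 dimensions. Clusters were called at resolution 0.1 over all cells and at 0.2 (finer, 0.4) within myogenic cells. The 9 factors were left out of the clustering features and of the markers that named clusters, and a cluster needed 3 detected markers for a name.

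Levels are CPM of each library's summed myogenic UMIs, or of the summed UMIs of the cluster or other cells named. Libraries were compared as log2 ratios with exact binomial intervals of the counts. No test was run. Intervals were tested on simulated independent Poisson counts. Such counts do not hold UMIs that lie together in few cells, so the intervals were not tested for that. Sums over clusters were made in Python 3.11.15 with numpy 2.4.6, pandas 2.3.3 and scipy 1.17.1, and figures with matplotlib 3.10.9. Expected joint detection was the product of the shares of cells with each gene, cells thinned to 3000 UMIs. Likeness between genes was Pearson's r over genes with a mean of at least 20 CPM (5 for Pax3).

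Named genes were Dmd, the 9 factors, members of the pathway lists with the highest and lowest ratios, and the genes most like a factor. List members were ranked by mdx over B10 among those tested in both pairs. 1 list of upstream factors is given by single genes only, since a gene of it is not reported here. The members and lists were chosen with earlier results of these data known. Alternatives changed 1 choice at a time: library sizes by TMM (edgeR 4.0.16) or DESeq2 1.42.0, no minimum or 50 CPM, the mean over cells of counts per 10000, no upper limit on genes and a minimum of 500, a mitochondrial limit of 5%, doublets kept, MuSC-like cells only, all cells, thinning to 2000 or 5000 UMIs or none, 2 UMIs per gene, the 9 factors kept as features, resolutions 0.1 and 0.4, 20 dimensions and no integration. For counts over all pairs and for the order by Myod1, and for ratios without shared barcodes, alternatives were chosen after seeing the data.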

Additional observations from a re-analysis of the deposited data

Results flagged for a closer look

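In cluster 2, Mef2c differed in opposite directions in the pairs: its log2 ratio was 3.63 (1.13 to 8.95) in mdx over B10 and -0.78 (-1.39 to -0.13) in D2-mdx over DBA. The difference between the pairs was not tested, and it rested on 1 UMI in 127 B10 cells and 29 UMIs in 130 DBA cells, against 130 in mdx and 94 in D2-mdx. Over all DBA myogenic cells, the 79 Mef2c UMIs lay in 45 cells, with up to 18 in 1 cell. The cluster of that cell is not given here, and the intervals take UMIs as independent. The opposite directions are therefore not read as a difference between the strains.

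Barcodes with more than 5000 genes were left out of the comparisons above. Among myogenic ones, 35 in B10, 91 in DBA, 170 in mdx and 436 in D2-mdx, some factors were again higher in the DMD libraries than in the control. Myod1 was at 274 CPM in mdx (169 in B10) and 311 CPM in D2-mdx (147 in DBA). Myog was at 396 CPM in mdx (7.21 in B10) and 327 CPM in D2-mdx (21.0 in DBA). Mef2a was at 193 CPM in mdx (78.3 in B10) and 186 CPM in D2-mdx (89.6 in DBA). The remaining factors were lower in each DMD library than in its control, Mef2c in mdx only just. Pax7 was at 109 CPM in mdx (649 in B10) and 62.0 CPM in D2-mdx (374 in DBA). Myf5 was at 98.3 CPM in mdx (294 in B10) and 51.8 CPM in D2-mdx (247 in DBA). These barcodes were not scored for doublets and were called myogenic by the kept cells nearest to them.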

How the results depend on the processing

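Each strain was a single library, so no replicate could be left out, and a fit of DMD against control with the background as a block, which would leave 1 degree of freedom, was not run. Of 119 alternative values of the main results 77 stayed within the limits set for a change and 42 moved. Among these, a change of direction was looked for only in the differences in shares of cells with both genes, and 0 changed it. The other main results are counts, which could only stay or move. Of 360 alternative ratios of single factors 259 stayed and 101 moved. Among the ratios of single factors, a change of direction was looked for only in those past 2-fold, and 0 of these changed it. Smaller ratios did change sign, among them Myf5 in MuSC-like cells (0.12 in mdx over B10 and 0.06 in D2-mdx over DBA). Others in MuSC-like cells were Myod1 in D2-mdx over DBA (-0.17) and Myog in DBA over B10 (-0.11, on 11 and 16 UMIs). Of 50 alternatives of the ratios past 2-fold, 45 stayed past it. The exceptions were Pax7, Pax3 and Myog in mdx over B10 in MuSC-like cells, where Myog was under 10 CPM, and Pax3 in D2-mdx over DBA as the mean over cells (-0.83) and in MuSC-like cells (-0.53).

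The number of factors past 2-fold in mdx over B10 was 5 with no minimum level (Myf6 and Mef2c added) and 0 in MuSC-like cells. In D2-mdx over DBA it was 1 (Myog) with a minimum of 50 CPM, with the mean over cells and in MuSC-like cells, and 4 with at least 500 genes and no upper limit (Pax7 and Mef2a added). In DBA over B10 it was 1 with no minimum (Mef2c), with the mean over cells (Myog) and in all cells (Mef2c).

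Shares of cells moved with depth. The difference in Pax7 with Myod1, in percentage points, between mdx and B10 was -4.80 at 2000 UMIs, -9.72 at 5000, -13.4 without thinning, -2.51 with 2 UMIs per gene, -4.37 in MuSC-like cells and -8.96 in all cells. Between D2-mdx and DBA it was -5.79, -11.4, -22.3 and -1.82 under the first 4 of these. For Myod1 with Myog it was 5.54 at 5000 UMIs, 5.01 without thinning, 1.78 with 2 UMIs, 0.305 in MuSC-like cells and 2.38 in all cells for mdx and B10, and 6.71, 6.88, 2.34, 0.50 and 3.26 for D2-mdx and DBA, with 3.05 at 2000. For Pax7 with Myog it was 0.758 at 2000 UMIs, 2.58 at 5000, 4.10 without thinning and 0.0415 with 2 UMIs for mdx and B10, and 1.27, 4.52, 7.03 and 0.0214 for D2-mdx and DBA, with 2.02 in all cells. At 2000 UMIs, 2 pairs in place of 4 were above expectation in every library, and in MuSC-like cells the rise of Myog with Myod1 was seen in 0 libraries. With no integration 4 of 9 factors kept the cluster of their highest mean. The cause of these shifts was not tested. Rare factors such as Pax3, Myf6 and Mef2c were limited by depth, and a cell without a UMI may hold the RNA.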
